A study of Mus musculus with 3 samples.

Results

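The comparison is between a pair of cell fractions sorted from C57BL/6 mouse bone that differ in the surface protein Sca-1 and share the receptor PDGFRα. The array labelled PDGFRa(+) Sca-1(+) was set against the array labelled PDGFRa(+) Sca-1(-), which are 2 of the 3 arrays of the series, with 1 array per fraction. The remaining array, PDGFRa(-) Sca-1(-), is given beside them as a level only. They are called here the Sca-1+, the Sca-1- and the double-negative array. Per the labels, femur and tibia fragments were digested with collagenase, and all 3 fractions were gated to lack CD45, CD31 and Ter119, surface proteins of blood, endothelial and erythroid cells. The labels call all of them endosteal cells of murine bone marrow and state no age, sex, treatment or number of animals, nor whether animals were pooled. Of the 18193 genes with a probe set of their own, 11855 had a signal over a floor of 93.2 on at least 1 of the PDGFRα+ arrays and were compared. The floor is the mean of the 3 array medians, and signals are linear brightness units. There was no replicate, so no test of any difference was possible, and no value below has an error between animals or arrays.

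PDGFRα is a receptor tyrosine kinase for platelet-derived growth factors that is found on many mesenchymal cells. Sca-1 is a lipid-anchored surface protein of the Ly6 family, used with PDGFRα to enrich mesenchymal progenitors from mouse bone. Stroma of bone and its coverings makes fibrous matrix and signals to blood-forming cells, whereas chondrocytes make cartilage matrix and osteoblasts make and mineralise bone matrix. In each sentence of values below, signals stand in the order Sca-1+, Sca-1- and double-negative array unless the array is named. A gene counted as higher or lower where the Sca-1+ signal differed from the Sca-1- signal by at least 2-fold. Where a gene was under the floor on the dimmer array, the fold was taken against the floor and is written as at least that size. In bulk RNA, fewer cells of a type and less RNA per cell cannot be told apart.

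The gate genes were read first. Pdgfra gave signals of 12844, 2420 and 587, so the Sca-1+ array was 5.31-fold over the Sca-1- array, although both fractions are labelled positive. The genes of CD45 (Ptprc) and CD31 (Pecam1) were under the floor on all 3 arrays, with highest signals of 74.1 and 10.7. The gene encoding Sca-1 is not analysed here. The ratio of the 3' to the 5' control probe set of Actb was 4.65 on the Sca-1+ array, 2.63 on the Sca-1- array and 2.99 on the double-negative array, and for Gapdh it was 4.73, 3.54 and 3.93. The 5' end was thus relatively dimmest on the Sca-1+ array, and the part of this in the differences below was not tested.

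Marker genes of 14 cell types were read on the same arrays. Their counts stand beside 14.9% higher and 11.3% lower over all genes compared. Of 13 fibroblast markers compared, 9 were higher on the Sca-1+ array, and their summed signals were 227788, 106997 and 101010. Of 14 chondrocyte markers, 13 were lower, with sums of 46725, 329437 and 317498, and of 8 osteoblast markers 7 were lower, with sums of 19532, 128758 and 45355. The label of endosteal cell thus covers bright cartilage RNA on both Sca-1-negative arrays. Synovial lining markers were higher for 7 and lower for 1 of 10 genes, with sums of 85480, 54965 and 77686, so that the double-negative array was nearly as bright as the Sca-1+ array. The lower gene was Hbegf, at 3051, 7713 and 12934. The largest ratios among the higher genes were those of Cd55, which restrains complement, at 3099, 188 and 118, and of the hyaluronan synthase Has1 at 11827, 869 and 1693. Pericyte markers were higher for 4 (36.4%) and lower for 1 (9.09%) of 11.

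Of 21 endothelial markers 9 could be compared, and 4 were higher and 2 lower. Their summed signals were 6835, 2297 and 1780, of which Ackr1, a chemokine-binding receptor of venules, made 4053 on the Sca-1+ array. The endothelial genes Cdh5, Emcn and Vwf were under the floor on all 3 arrays. Some other members were not. Eng gave 752, 346 and 306, Plvap gave 445, 187 and 103, and Kdr gave 155, 110 and 67.1. Erg, at 82.6, 655 and 527, and Mmrn2, at 76.3, 226 and 129, were under the floor on the Sca-1+ array alone. The erythroid genes Hba-a1 and Alas2 were under the floor on all 3 arrays as well. Of the 15 erythroid and megakaryocyte markers, however, 6, 7 and 9 were over the floor on the 3 arrays. Among them Tfrc gave 1063, 1752 and 6576, and Itga2b gave 1224, 356 and 465. Of 18 lymphocyte markers only Ebf1, at 7380, 391 and 189, and Cd8a, at 305, 244 and 210, could be compared, while Cd79a and Cd3e were under the floor on all 3 arrays. Ebf1 is also a factor of stromal cells. Neutrophil and granulocyte markers summed to 3626, 3739 and 849, and of 15 such genes 11, 11 and 2 were over the floor. Mpo gave 655, 712 and 44.9 and S100a8 gave 521, 662 and 143, so both PDGFRα+ arrays were brighter than the double-negative array. Between the PDGFRα+ arrays 1 of 11 was higher and 0 were lower. Erythroid and megakaryocyte markers summed to 3319, 3756 and 10252. Neither sum was brightest on the Sca-1+ array. The fast-muscle troponin Tnni2 gave 45.3, 2163 and 1293, and was at least 23.2-fold lower on the Sca-1+ array. The part of these other cells in any result below was not tested.

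**Figure D1:**
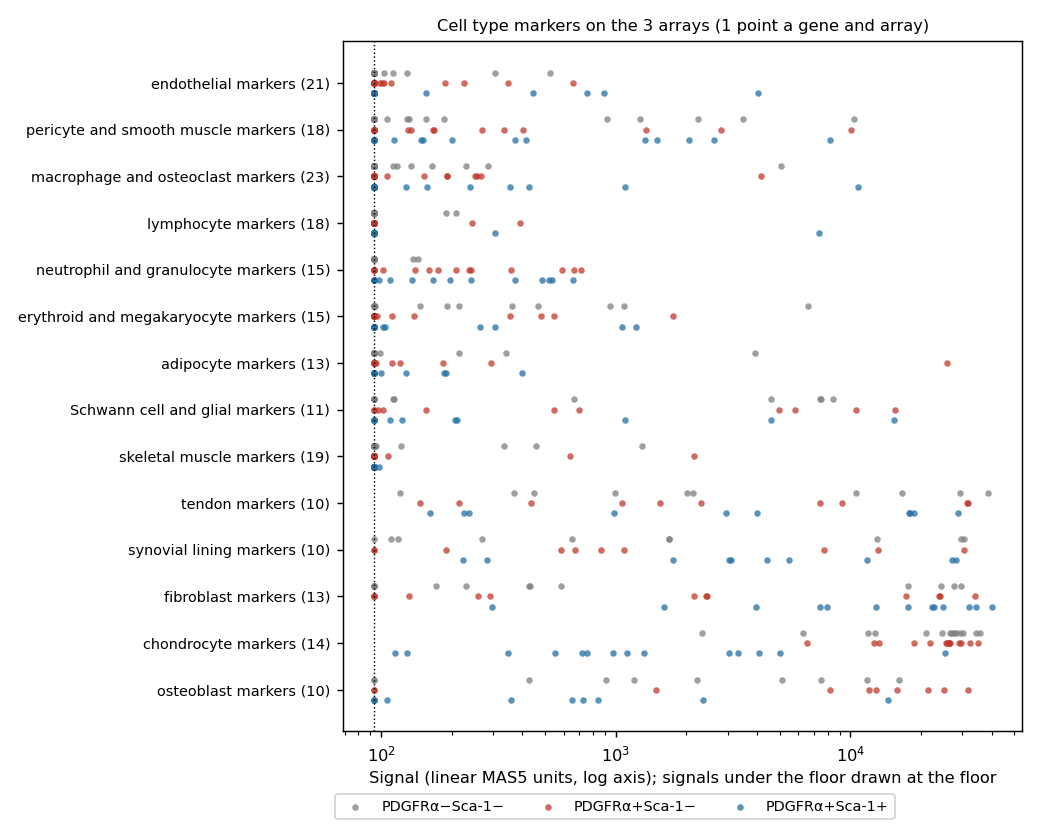
Signals of cell type marker genes on the 3 arrays, on a log axis in linear brightness units; each point is 1 gene on 1 array, signals under the floor of 93.2 are drawn at it, and the number of genes with a probe set is in brackets. Chondrocyte and osteoblast markers lie to the left on the Sca-1+ array, fibroblast markers lie to the right, and most lymphocyte and skeletal muscle markers sit at the floor.

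Across all genes, 1763 of 11855 were at least 2-fold higher on the Sca-1+ array, which is 14.9%, and 1340 were at least 2-fold lower, which is 11.3%. Together 26.2% of the genes compared passed 2-fold, and 8752 lay within it. The median log2 ratio over all genes was 0.07. At 4-fold 547 genes were higher (4.61%) and 457 lower (3.85%), together 8.47%. At 10-fold the counts were 150 higher (1.27%) and 141 lower (1.19%), together 2.45%, and at 30-fold 18 higher and 28 lower. The share passing 2-fold was 9.58% among the 2631 genes whose brighter signal was under 250. It lay between 27.9% and 35.0% in every brighter class. Dimmer signals were raised to the floor, so a gene whose brighter signal was less than 2-fold over the floor could not pass. The low share in the dimmest class is therefore partly set by the floor and cannot be read as a property of those genes. Among the 151 genes brighter than 20000, 10.6% were higher and 21.2% lower, so the brightest genes leaned towards the Sca-1- array. That array had 126 genes over 20000, the Sca-1+ array 89 and the double-negative array 125.

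**Figure D2:**
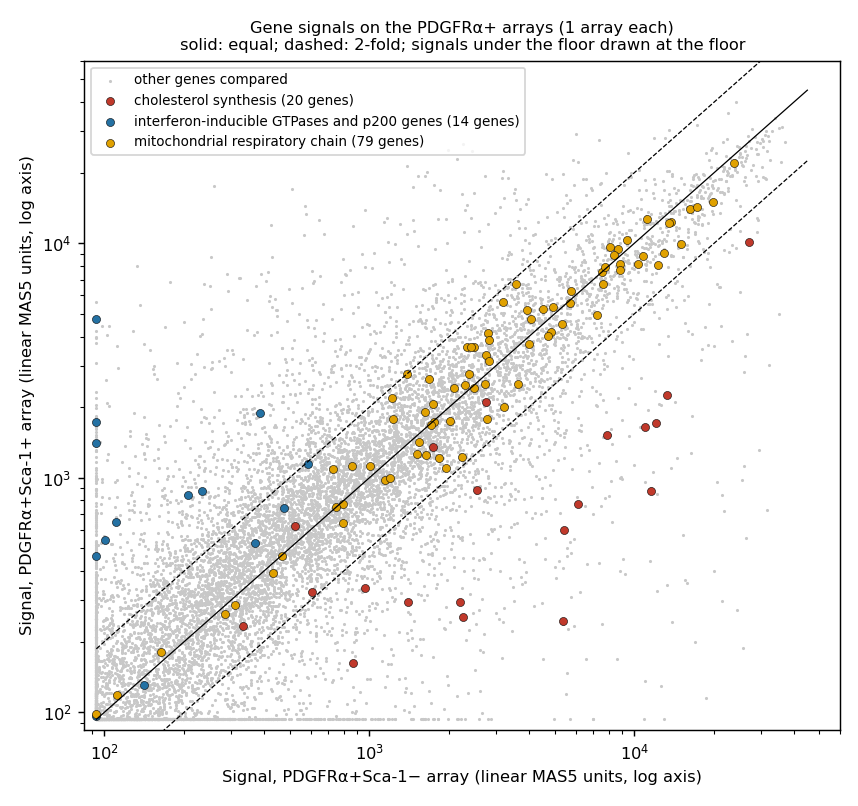
Gene signals on the Sca-1+ array (vertical) against the Sca-1- array (horizontal), both log axes in linear brightness units, 1 point per gene, signals under the floor drawn at the floor. Cholesterol synthesis genes lie mostly under the lower 2-fold line, interferon-inducible GTPase and p200 genes mostly over the upper one, and all 79 respiratory chain genes between the lines.

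Different probe sets of the same gene were the only repeated measurement. Over 4300 genes with several probe sets measured on both arrays, the SD of log2 ratios between probe sets of a gene was 0.60, so a 2-fold ratio from 1 probe set is less than 2 such SDs. Of 1539 genes called with several probe sets, 1263 (82.1%) had probe sets that all leaned one way and 654 (42.5%) had every probe set past 2-fold. Only 34 had a probe set past 2-fold the other way. Where the brightest probe set passed 2-fold, in 1050 genes, the second brightest had a smaller median log2 size, 1.18 against 1.52. For genes past 2-fold that are named below, the log2 ratios of the other probe sets are given where they lie within 2-fold or go the other way.

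**Figure D3:**
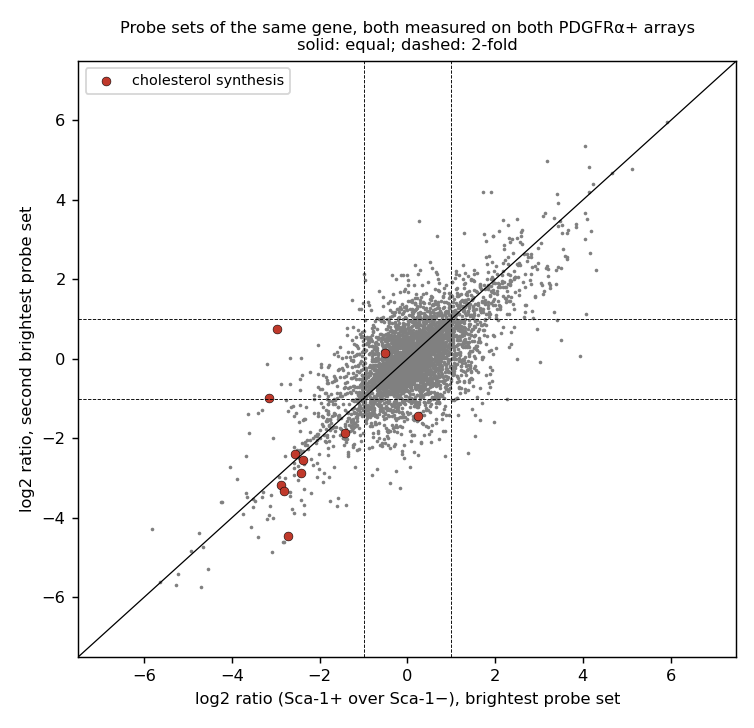
Log2 ratio of Sca-1+ over Sca-1- signals from the second brightest probe set of a gene (vertical) against the brightest (horizontal), 1 point per gene with both measured on both arrays; red points are cholesterol synthesis genes. Of 1050 genes whose brightest probe set passed 2-fold, 595 had the second past 2-fold the same way and 16 the other way.

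The genes with large ratios were read by rank below the most extreme 6 in each direction. On the Sca-1+ side they included matrix, signalling and secreted proteins. Emilin2, an elastic-fibre glycoprotein, gave 6831, 177 and 255, a 38.5-fold step. Vcan, a hyaluronan-binding proteoglycan, gave 14356, 570 and 916 and was 25.2-fold higher, with all 3 of its probe sets past 2-fold. Tppp3, a microtubule-binding protein, gave 17117, 509 and 569. In each of these the Sca-1+ array stood alone and the Sca-1- and double-negative arrays lay close together. The Wnt antagonist Dkk2 gave 6682, 237 and 135, 28.1-fold higher. The Wnt amplifier Rspo2 was 32.6-fold higher, at 3634, 111 and 30.8, but its other probe set had a log2 ratio of -0.71.

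Serpina3n, a protease inhibitor of the acute-phase response, was an exception in its double-negative value, at 4404, 170 and 1312. Entpd2, which splits ATP outside the cell, gave 6576, 250 and 344, 26.3-fold higher. Meox2, a homeobox factor, gave 6553, 374 and 390, and the log2 ratios of its probe sets were 4.13 and 4.84. Lnx1, a ubiquitin ligase, was 17.0-fold higher, at 6919, 408 and 434, with probe sets from 3.52 to 4.08. Among genes under the floor on the Sca-1- array, the bounds were at least 21.9-fold for the sodium channel Scn7a, at 2042 on the Sca-1+ array, and at least 21.3-fold for the TEAD cofactor Vgll3, at 1984. The other probe sets of Scn7a reached down to 0.18, those of Vgll3 to 3.41.

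On the Sca-1- side, Mia, a secreted protein of cartilage, gave 297, 21519 and 18571, 72.4-fold lower on the Sca-1+ array. Susd5, a hyaluronan-binding membrane protein, gave 399, 19931 and 16764, and both of its probe sets gave about the same ratio, from -5.64 to -5.61. Prkg2, a cyclic GMP-dependent kinase that acts in growth-plate chondrocytes, gave 243, 13830 and 11961. These 3 genes were about as bright on the double-negative as on the Sca-1- array. Other genes were brightest on the Sca-1- array. Loxl4, a lysyl oxidase of collagen cross-linking, gave 168, 8575 and 1209, 51.0-fold lower on the Sca-1+ array. The kinase Wnk4, a regulator of ion transport, gave 120, 5502 and 739, and the pantetheinase Vnn1 gave 237, 7570 and 1586. The sodium pump modulators Fxyd2, which was brightest on the double-negative array at 169, 6563 and 7977, and Fxyd3, at 147, 5588 and 2374, were 38.8-fold and 38.1-fold lower. Ddit4l, an inhibitor of mTOR signalling, gave 571, 15300 and 5773, with 3 probe sets from -5.39 to -4.37.

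The brightest genes within 1.1-fold of equality were not housekeeping genes alone. They included the proteoglycans Dcn and Bgn and the collagen chain Col1a2 beside Eef1a1, Hspa8 and Akr1a1.

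Beyond these single genes, 71 gene classes were read. They were described by the number of members past 2-fold and the median log2 ratio, beside 14.9% higher, 11.3% lower and a median of 0.07 over all genes. Only 3 classes of at least 10 genes had a median beyond 2-fold, and these were cholesterol synthesis on the low side and interferon-inducible GTPases with p200 genes and the insulin-like growth factor axis on the high side.

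Cholesterol synthesis was the class with the lowest median, -2.40. Cells make cholesterol from acetyl units through mevalonate, isoprenes, squalene and lanosterol, under the sterol-sensing factor SREBP-2, which binds sterol regulatory elements together with the CCAAT-binding factor NF-Y. Of 20 genes compared, 15 (75%) were lower on the Sca-1+ array and 0 were higher, against 11.3% lower among all genes. With the mean over all probe sets of a gene the median was -1.55 and 13 genes were lower. The promoters of 3 genes that were bright on the Sca-1- array, 250 bases before to 50 after the transcript start, are shown for these sequence motifs. They are from RefSeq, assembly GRCm38.p6, 5′ to 3′ on the strand of the gene. Hmgcs1 is at chr13:119690101-119690400 on the plus strand, Idi1 at chr13:8885356-8885655 on the plus strand and Msmo1 at chr8:64733529-64733828 on the minus strand. Capitals mark CCAAT or its complement ATTGG and, in Hmgcs1, the sterol regulatory element TCACNCCAC.

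Hmgcs1: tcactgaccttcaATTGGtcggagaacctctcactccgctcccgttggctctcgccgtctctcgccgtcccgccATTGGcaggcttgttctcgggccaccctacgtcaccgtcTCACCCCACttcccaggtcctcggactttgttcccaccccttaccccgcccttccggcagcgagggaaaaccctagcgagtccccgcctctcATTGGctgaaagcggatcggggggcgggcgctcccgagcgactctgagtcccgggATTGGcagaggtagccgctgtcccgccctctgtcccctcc
Idi1: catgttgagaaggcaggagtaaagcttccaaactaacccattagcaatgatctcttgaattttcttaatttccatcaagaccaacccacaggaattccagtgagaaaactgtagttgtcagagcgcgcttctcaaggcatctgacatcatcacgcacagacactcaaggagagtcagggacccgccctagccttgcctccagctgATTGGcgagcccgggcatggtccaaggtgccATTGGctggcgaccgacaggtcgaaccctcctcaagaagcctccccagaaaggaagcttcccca
Msmo1: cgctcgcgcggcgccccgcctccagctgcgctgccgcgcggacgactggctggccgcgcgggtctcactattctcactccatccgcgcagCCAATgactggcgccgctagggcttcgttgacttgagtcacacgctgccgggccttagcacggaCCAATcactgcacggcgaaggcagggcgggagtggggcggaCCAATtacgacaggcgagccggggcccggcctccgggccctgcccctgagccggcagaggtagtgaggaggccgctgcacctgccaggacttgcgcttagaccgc

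Searched on both strands, CCAAT was present in at least 1 window of all 16 cholesterol synthesis genes that were compared and had a promoter in the RefSeq table, against 41.1% of all 27025 genes with such a window and 42.5% of the lower genes. The 16 include 11 lower genes and 5 within 2-fold, so the letters did not separate those groups. TCACNCCAC was found in Hmgcs1 alone of the 16, against 1.44% of all genes. A match describes letters in this window and not binding.

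By place in the pathway, the mevalonate steps come first; members beyond the 4 largest ratios were named after their values were seen, so that each step has a gene. Hmgcs1, which makes HMG-CoA, was the brightest member and gave 10122, 27023 and 23630, 2.67-fold lower on the Sca-1+ array, with 5 probe sets from -2.32 to -0.30. The kinase Pmvk gave 295, 2195 and 1992, and the decarboxylase Mvd gave 162, 867 and 558. Mvk, the mevalonate kinase before them, was within 2-fold. In the isoprene and squalene steps, Idi1 gave 2246, 13273 and 9018, Fdft1 (squalene synthase) 1715, 12042 and 7114, and Sqle (squalene epoxidase) 1650, 10950 and 8559. In every one of these genes given with signals, the Sca-1+ array was the dimmest of the 3 and the Sca-1- array the brightest, with the double-negative array between them.

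From lanosterol on, members differed among themselves. Lss, which closes the sterol rings, gave 254, 2256 and 1610, 8.87-fold lower on the Sca-1+ array, with its other probe set just within 2-fold. Cyp51, the lanosterol demethylase, gave 599, 5441 and 4066, 9.08-fold lower. Msmo1, a sterol methyl oxidase, gave 875, 11519 and 7283, 13.2-fold lower, although its dimmer probe set was at -0.73. Dhcr7, the last reductase, gave 296, 1396 and 1198, and Hsd17b7, a ketosteroid reductase, gave 1529, 7916 and 6712. Tm7sf2, Ebp and Nsdhl, enzymes of the same stretch, were within 2-fold, with log2 ratios of -0.89, -0.39 and -0.37. The probe sets of Sc5d, a sterol desaturase at 775, 6123 and 4200, disagreed and ran from -2.98 to 0.75. The sterol carrier Stard4 had the largest step of the class, 245, 5397 and 2321, 22-fold. Insig1, a sterol-sensing partner of SREBP, gave 891, 2554 and 2673, whereas Srebf2, which encodes SREBP-2, was within 2-fold at 621, 525 and 438. Of 10 lower members with several probe sets, 6 had every probe set past 2-fold.

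Outside the synthesis list, Scarb1, a receptor that takes up cholesterol from high-density lipoprotein, was 25.3-fold lower, at 233, 5905 and 5392, with 3 probe sets from -4.73 to -4.51. Both synthesis and this uptake gene followed the chondrocyte marker sums, which were lowest on the Sca-1+ array, and the part of cartilage cells in these values was not tested.

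**Figure D4:**
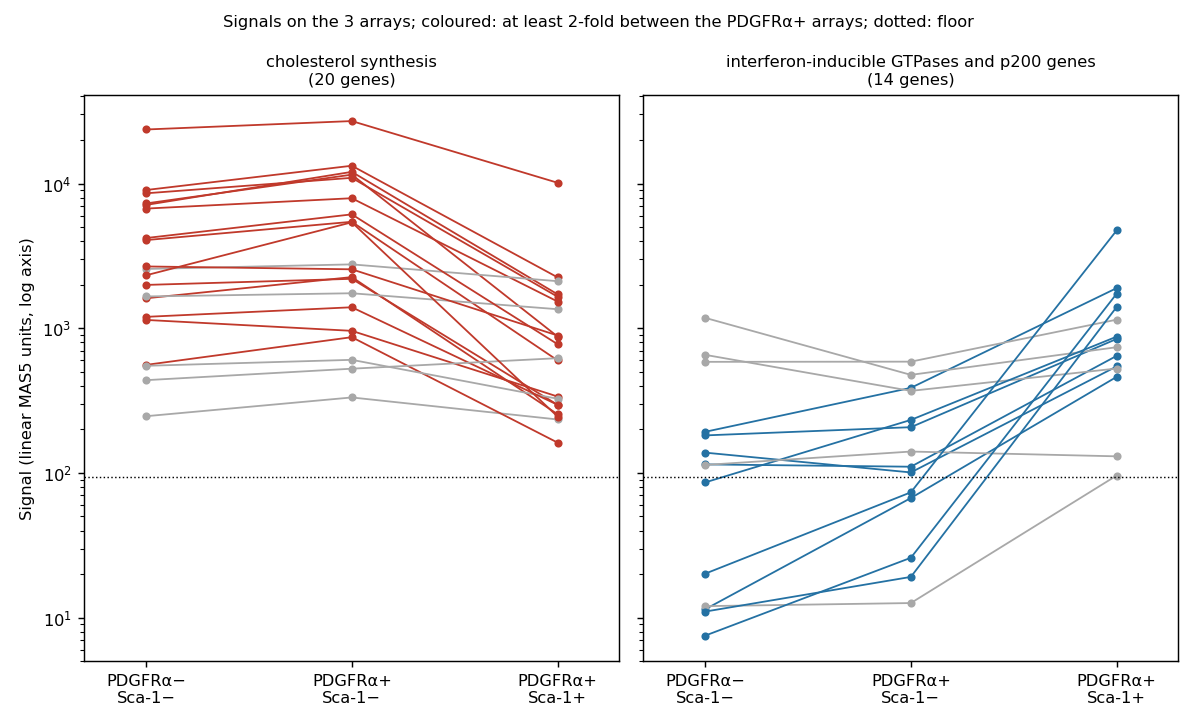
Signals of the 20 cholesterol synthesis genes (left) and 14 interferon-inducible GTPase and p200 genes (right) on the 3 arrays, log axis in linear brightness units; 1 line per gene, coloured where the PDGFRα+ arrays differ by at least 2-fold, dotted line at the floor. In the left panel 15 genes are lower on the Sca-1+ than the Sca-1- array, and in the right panel 9 genes are higher.

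Other lipid classes had members in both directions. Of 35 fatty acid and triglyceride genes 5 were higher (14.3%) and 4 lower (11.4%), shares close to the 14.9% and 11.3% over all genes. Lpl, which releases fatty acids from circulating triglyceride, gave 9905, 1251 and 661, 7.92-fold higher on the Sca-1+ array, with both of its probe sets past 4-fold. Of 21 lipoprotein and lipid transport genes 6 were higher (28.6%) and 5 lower (23.8%), both above the shares over all genes, with a median of 0.03. Among lipid carriers, Apod gave 13439, 2991 and 1233, whereas Apoe gave 4180, 1099 and 14753 and was brightest on the double-negative array. Of 20 prostaglandin and leukotriene genes 6 were higher and 6 lower, 30% each. Hpgd, which breaks down prostaglandins, gave 227, 5620 and 412, 24.7-fold lower, and the phospholipase Pla2g10 gave 117, 2139 and 154. Both were bright on the Sca-1- array alone. Slco2a1, a prostaglandin transporter, gave 1684, 160 and 178, with another probe set at 0.01.

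Among detoxifying enzymes, cytochrome P450 genes leaned towards the Sca-1+ array. Of 22 such genes 7 were higher (31.8%) and 1 lower (4.55%), against 14.9% and 11.3% over all genes, and 9 of the 22 ratios were bounds. The lower gene was the sterol enzyme Cyp51. Cyp1b1, which oxidises steroids and retinoids, gave 4205, 129 and 34.1, 32.7-fold higher, and Cyp2f2 gave 4198, 376 and 50.9. Of 38 glutathione and antioxidant genes, 9 were higher (23.7%) and 4 lower (10.5%), the lower share being close to that over all genes. The microsomal glutathione transferase Mgst1 gave 10867, 568 and 180, 19.1-fold higher, and the extracellular superoxide dismutase Sod3 gave 4272, 344 and 419, 12.4-fold higher. Srxn1, a repair enzyme for peroxiredoxins, went the other way at 1309, 6738 and 15922. Its probe sets ran from -3.28 to -0.76.

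Retinaldehyde dehydrogenases, which make retinoic acid, were divided between the fractions. Aldh1a1 gave 2030, 188 and 225, 10.8-fold higher on the Sca-1+ array, and Aldh1a2 was 9.83-fold higher. Aldh1a3 gave 1183, 8511 and 528, 7.19-fold lower, with every probe set past 4-fold. The Sca-1- array was thus the high array for Aldh1a3 alone of the 3. Rarres2, which encodes the chemoattractant chemerin, gave 7574, 415 and 107, 18.3-fold higher. In purine signalling the ectoenzymes were divided as well. Nt5e (CD73), which makes adenosine from AMP, gave 450, 9037 and 8357, 20.1-fold lower, and Entpd3 was at least 16.9-fold lower at 10.2, 1575 and 156, against the higher Entpd2 named above. Dpp4, a surface peptidase of fibroblasts, was at least 17.2-fold higher, with another probe set at 0.22.

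Among enzymes of acid and iron handling, the carbonic anhydrase Car3 gave 188, 25813 and 3933, 137-fold lower, and both other carbonic anhydrases that were lower, Car12 at 319, 1529 and 8183 and Car2 at 263, 548 and 1081, were brightest on the double-negative array. Scara5, a ferritin receptor, gave 13291, 575 and 70.3, 23.1-fold higher, but its other probe set was at -0.01. Steap1, a metalloreductase, gave 553, 4594 and 5518. Car3 is also on the adipocyte list, of which 1 gene was higher and 2 were lower of 9. The adipocyte gene Adipoq was over the floor only on the Sca-1- array, at 58.4, 294 and 79.5, and Lep was under the floor on all 3. The higher gene was Cebpa, at 399, 183 and 214. Fabp4, at 128, 58.0 and 52.3, and Pparg, at 100, 14.7 and 27.5, were over the floor on the Sca-1+ array alone.

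Glycolysis and hypoxia genes were lower for 10 and higher for 3 of 28, with a median of -0.48. The glucose transporter Slc2a1 gave 2068, 12412 and 9245, 6.00-fold lower, and the angiogenic ligand Vegfa gave 1757, 9000 and 3677, 5.12-fold lower, with every probe set of both past 4-fold. Egln3, an oxygen-sensing hydroxylase that is itself induced in hypoxia, went the other way by 7.29-fold, though its probe sets reached down to 0.46. The class therefore had members in both directions. Mitochondrial respiratory chain genes were the contrast. Of 79 genes 0 passed 2-fold, against 26.2% of all genes, and their median was -0.03.

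Interferon-inducible genes formed the class with the highest median, 2.16. Guanylate-binding proteins and immunity-related GTPases act on membranes of intracellular pathogens, and the p200 proteins bind nucleic acid. Their genes are induced through interferon-stimulated response elements. Of 14 genes compared, 9 (64.3%) were higher on the Sca-1+ array and 0 lower, against 14.9% higher among all genes. With a floor at the 67th percentile of signals the median was 1.53, and 5 genes were higher of the 9 over the floor on both arrays. Promoters of 2 of the higher genes with a match are shown for that element, with capitals on the searched motif, which is GAAA, any 2 bases and GAAA again, or on the other strand TTTC, any 2 bases and TTTC. Ifi207 is at chr1:173741760-173742059 on the minus strand and Gbp2 at chr3:142620413-142620712 on the plus strand, from RefSeq, assembly GRCm38.p6.

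Ifi207: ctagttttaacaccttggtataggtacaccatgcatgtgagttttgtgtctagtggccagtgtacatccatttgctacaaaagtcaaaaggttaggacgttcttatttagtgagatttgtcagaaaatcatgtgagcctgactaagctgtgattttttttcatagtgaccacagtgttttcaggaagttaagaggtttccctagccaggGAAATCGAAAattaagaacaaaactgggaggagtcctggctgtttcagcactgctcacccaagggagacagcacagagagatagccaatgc
Gbp2: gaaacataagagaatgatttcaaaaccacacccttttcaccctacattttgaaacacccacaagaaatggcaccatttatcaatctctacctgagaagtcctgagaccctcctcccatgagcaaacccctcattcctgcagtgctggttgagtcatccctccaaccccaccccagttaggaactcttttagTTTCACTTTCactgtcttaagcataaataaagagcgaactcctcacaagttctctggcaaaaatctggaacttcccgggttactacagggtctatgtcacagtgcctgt

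That motif, searched on both strands, was present in 9 of the 10 members that were compared and had a promoter, against 3.99% of all genes, 5.03% of the higher and 3.08% of the lower genes. The compared member without it was Ifi47, a higher gene with a log2 ratio of 2.31. Of the 6 higher members 5 held it, and members within 2-fold held it as well, so the letters did not separate those groups. Aim2, which was under the floor, did not hold it either. In the p200 group, Mndal gave 4744, 73.5 and 20.1 and was at least 50.9-fold higher, with probe sets from 5.02 to 5.67. Ifi204 gave 1734, 25.9 and 7.5, at least 18.6-fold higher, and Ifi207 gave 1403, 19.1 and 11, at least 15.1-fold higher. All 3 were over the floor only on the Sca-1+ array. Ifi203, another p200 gene that was compared, was within 2-fold, with a log2 ratio of -0.11. The genes of this family are near-identical in stretches, so a probe set can read several of them and the value of each is uncertain.

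Among the GTPases, where members beyond the largest ratios were again named after their values were seen, Gbp2 gave 1894, 387 and 192, Gbp3 gave 645, 110 and 115, 5.84-fold higher, and Gbp7 gave 844, 207 and 182. Iigp1 gave 875, 232 and 85.9. Irgm1, Irgm2 and Igtp were within 2-fold, and Mx1 and Aim2 were under the floor on both PDGFRα+ arrays. The direction was not shared by the regulators of the response, since of 18 interferon regulatory factors and STATs 2 were higher and 2 lower. Irf7, an amplifier of the response, was higher at 432, 155 and 160. Interferon-related antigen-processing genes included Psmb8, a catalytic subunit of the immunoproteasome, at least 4.78-fold higher with 446 on the Sca-1+ and 12.1 on the Sca-1- array, and the non-classical class I gene H2-M3, at 1640, 437 and 294. Of 14 class I and peptide loading genes 5 were higher and 1 lower.

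Toll-like receptor genes together with NF-kB feedback genes were higher for 7 and lower for 5 of 28. Tlr2, a receptor for bacterial lipopeptides, gave 2230, 327 and 711, 6.82-fold higher. Tlr4, the lipopolysaccharide receptor, gave 1235, 130 and 88.8, 9.48-fold higher, with another probe set at 0.35, and its co-receptor Cd14 went the other way at 367, 1959 and 1011, 5.33-fold lower. Irak3, a brake on this signalling, gave 1808, 142 and 188, 12.8-fold higher. Interleukin, interferon and TNF receptors were split, with 11 higher and 10 lower of 37. Il1rl2, an interleukin-36 receptor, gave 977, 112 and 63.9, and the death-domain receptor Tnfrsf21 gave 151, 2507 and 3201, 16.6-fold lower with every probe set past 4-fold. Among 13 lectins and galectins 6 were higher and 0 lower. Macrophage and osteoclast markers, whose sorting gene Ptprc was under the floor, were higher for 3 of 8, among them Lyz1 at 1091, 191 and 63.8.

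Growth factor classes differed in whether they had a direction. In the insulin-like growth factor axis 9 of 18 genes were higher and 0 lower, with a median of 1.09, which was 0.69 without the genes over 20000. The ligand Igf1 gave 20254, 3206 and 2269, 6.32-fold higher, and its binding proteins Igfbp6, at 19046, 3325 and 2036, and Igfbp3, at 1338, 245 and 122, were 5.73-fold and 5.45-fold higher. For these genes the Sca-1+ array stood well over both others. Angiogenic factors and receptors were higher for 11 and lower for 3 of 25. Vegfc and Vegfd, ligands of lymphatic growth, were 11.5-fold and at least 10.4-fold higher, at 3490 and 970 on the Sca-1+ array, while Vegfa was lower as given above. Tek, the angiopoietin receptor and an endothelial marker, was at least 9.53-fold higher at 888, 37.4 and 13.3.

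Fibroblast growth factor genes were divided by member. Fgf7, a stromal ligand for epithelia, gave 2905, 152 and 48.1, 19.1-fold higher, and Fgf18 gave 1236, 229 and 322. Fgfr3, a receptor of growth-plate chondrocytes, gave 430, 6635 and 9251, 15.4-fold lower, and the ligand Fgf1 gave 450, 2697 and 541. Of 15 such genes 4 were higher and 6 lower. Of 18 Hedgehog pathway genes 6 were higher and 5 lower. The surface co-receptors Cdon, at 13899, 2305 and 3642, Boc, at 4437, 1137 and 1224, and Gas1, at 18739, 4901 and 6766, were 6.03-fold, 3.90-fold and 3.82-fold higher. The ligand Ihh, made by prehypertrophic chondrocytes, was at least 8.53-fold lower at 76.8, 795 and 171.

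Among guidance molecules first named in neurons, netrin, Slit and semaphorin genes had members in both directions. Ntn1 gave 6288, 292 and 440, 21.6-fold higher on the Sca-1+ array, while its receptors Unc5b, at 530, 5740 and 2089, and Unc5c, at 139, 1007 and 3271, were 10.8-fold and 7.24-fold lower. Slit3 was higher at 1817, 336 and 20.5, and Slit2 lower at 160, 1204 and 164, with another probe set of Slit2 at -0.47. Among semaphorins the secreted class 3 members Sema3c, at 10982, 1384 and 2528, and Sema3e, at 2911, 252 and 481, were higher, and the membrane-bound Sema7a, at 143, 1957 and 1514, and Sema4d, at 250, 3091 and 765, were lower. The probe sets of Sema3e reached down to 0.87 and those of Sema4d to -0.70. Eph receptors and ephrins had no member higher and 4 of 14 lower. Epha2 gave 222, 3449 and 1862, 15.5-fold lower, and its ligand Efna1 gave 143, 1164 and 720, with another probe set at -0.97.

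Among peptide hormone receptors the subunits of a pair of related receptors were divided between the arrays. Calcrl, which binds calcitonin gene-related peptide with Ramp1 and adrenomedullin with Ramp2, was at least 24.9-fold higher at 2319, 73.5 and 8.2. Ramp2 gave 4036, 229 and 207, 17.6-fold higher. Ramp1 gave 121, 2366 and 259, 19.5-fold lower, with another probe set at -0.68. Calcrl and Ramp2 were thus high on the Sca-1+ array alone, and Ramp1 on the Sca-1- array alone. In the renin-angiotensin system, Agt, the hormone precursor, was at least 15.7-fold lower at 16.3, 1466 and 705, and Ace, the converting enzyme, was 6.84-fold higher at 750, 110 and 162. Calcrl and Ramp2 are also expressed by endothelial cells, of which 9 of 21 markers could be compared as given above.

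Adhesion and orphan G protein-coupled receptors were higher for 13 and lower for 7 of 37. Adgrg6, which acts in Schwann cells and cartilage, gave 325, 6229 and 3360, 19.1-fold lower, with every probe set past 4-fold. Gprc5b was 12.2-fold higher at 1514, 125 and 139. Among intracellular signal genes, the phosphatase Dusp5, a brake on ERK, gave 399, 8841 and 4686, 22.2-fold lower, and Prkg1, the relative of Prkg2, gave 215, 2706 and 1329, 12.6-fold lower. Axl, a receptor kinase for Gas6, gave 5229, 252 and 301, 20.8-fold higher, and the ligand Gas6 itself gave 8969, 940 and 843, 9.54-fold higher. Receptor and ligand were thus both bright on the Sca-1+ array.

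Transporter and channel classes differed. Of 231 solute carriers 31 were higher (13.4%) and 44 lower (19%), against 14.9% and 11.3% over all genes, with a median of -0.17. The amino acid transporters Slc38a4, at 28.3, 5703 and 1084, and Slc38a3, at 7.3, 2601 and 2729, were at least 61.2-fold and at least 27.9-fold lower. The citrate transporter Slc13a5, at 389, 9249 and 6015, and the zinc and manganese transporter Slc39a8, at 87.6, 2135 and 1286, were lower too. ABC transporters leaned the other way, with 9 of 30 higher (30%) and 1 lower (3.33%). Abca8a gave 16962, 1851 and 223, 9.16-fold higher, and the drug exporter Abcb1b gave 693, 115 and 283. Calcium, sodium, chloride and TRP channels were higher for 12 (27.3%) and lower for 2 (4.55%) of 44. Potassium channels were higher for 3 (10.7%) and lower for 7 (25%) of 28, and 17 of those 28 ratios were bounds. The calcium-permeable Trpv4, a mechanosensor of chondrocytes, gave 120, 1439 and 3778, 11.9-fold lower, and the pannexin Panx3, a channel of cartilage and bone, gave 200, 16907 and 11740, 84.7-fold lower.

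Adhesion genes were divided by member. Cadherins and protocadherins were higher for 13 and lower for 5 of 29. Cdh2 (N-cadherin) was at least 19.5-fold lower at 44.1, 1814 and 172, and Cdh13 (T-cadherin) was 12.5-fold higher at 2758, 220 and 278, with another probe set at 0.05. Integrins were higher for 6 and lower for 5 of 19. The collagen-binding subunits Itga1, at 160, 1177 and 359, and Itga10, at 374, 2477 and 2446, were 7.34-fold and 6.63-fold lower, and Itgb3, of the vitronectin receptor, was 7.68-fold higher at 1819, 237 and 67.5. Caveolar coat genes Cav1, at 14718, 3890 and 4595, and Cavin3, at 3630, 778 and 1083, were higher, and Cavin4, the muscle member, was at least 5.17-fold lower at 32.4, 481 and 91.0. The tetraspanin Tspan13 gave 328, 12209 and 6404, 37.2-fold lower, whereas Ms4a4d gave 5458, 136 and 8.0.

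Secreted inhibitors and clotting proteins were also divided. Of 17 serpins 8 were higher and 3 lower. Serping1, the inhibitor of complement C1, gave 31354, 3310 and 1329, 9.47-fold higher, and the antitrypsin genes Serpina1b, at 376, 3739 and 15641, and Serpina1c, at 181, 2691 and 6723, were lower. The antitrypsin genes of the mouse are near-identical copies, so the value of each is uncertain. In coagulation, the cofactor gene F5 gave 136, 10972 and 3689, 80.9-fold lower, and the cross-linking enzyme F13a1 gave 3825, 23448 and 6256. The anticoagulant genes Procr, at 5810, 442 and 606, and Pros1, at 4016, 877 and 1450, were 13.1-fold and 4.58-fold higher, as was the plasminogen activator Plat at 5906, 1170 and 1188. Of 15 such genes 7 were higher and 4 lower. Scg3, a secretory granule protein, was at least 42.2-fold higher at 3929, 7.5 and 9.9.

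Of 31 nuclear receptors 2 were higher and 3 lower. The vitamin D receptor Vdr gave 106, 1246 and 638, 11.8-fold lower with every probe set past 4-fold, and the oestrogen receptor Esr1 gave 2587, 573 and 971, with other probe sets down to 0.67. Forkhead factors had a median of -0.63, with 7 of 24 lower and 3 higher. Foxa3, at 44.5, 2794 and 1493, and Foxa2, at 14.1, 1078 and 336, had log2 ratios of -4.91 and -3.53 against the floor, and both were over the floor on the 2 Sca-1-negative arrays. Foxp1 gave 3255, 606 and 571, with another probe set at 0.16. Tbx18 was 3.57-fold higher at 1116, 312 and 475, and Tbx4, a hindlimb factor, at least 8.12-fold higher at 756, 58.9 and 97.2. Kruppel-like factors were nearly level, with 1 of 15 lower.

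Genes that are induced within minutes of a stimulus leaned towards the Sca-1- array. Of 29 immediate-early genes 7 were lower and 0 higher, with a median of -0.63. Arc gave 708, 5227 and 3142, 7.38-fold lower, Egr2 gave 4576, 15554 and 4568, and Btg2 gave 4232, 15913 and 11366. Heat shock genes, which are induced by damaged protein, were higher for 1 and lower for 1 of 23. In endoplasmic reticulum stress, Chac1, a target of the integrated stress response, gave 374, 3402 and 3041, 9.11-fold lower, and of 28 such genes 3 were higher and 3 lower. Among glucocorticoid-responsive genes, Tsc22d3 gave 877, 3649 and 2474, with another probe set at -0.46, and Pdk4 gave 400, 3104 and 346. The part of collagenase digestion and sorting in these values was not tested.

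Clock genes were higher for 2 and lower for 3 of 20, shares close to those over all genes. Dbp, an output factor of the clock, gave 5053, 865 and 1549, 5.84-fold higher, with every probe set past 4-fold. The repressors Per1, at 370, 1396 and 710, and Per2, at 409, 1355 and 824, were 3.78-fold and 3.32-fold lower, with another probe set of Per2 at -0.59, and 15 of 20 clock genes lay within 2-fold. The labels say nothing of the time of day at collection.

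Cell cycle genes differed modestly. Of 28 mitosis and spindle genes 7 were lower and 1 higher, with a median of -0.52. The spindle factor Tpx2 gave 117, 518 and 583, and Cdc20 gave 426, 1188 and 3568, so the double-negative array was the brightest. Replication genes were higher for 3 and lower for 2 of 34. The inhibitor Cdkn1c, an imprinted gene that restrains growth, gave 1215, 14448 and 6417, 11.9-fold lower, and the imprinted Phlda2 was at least 13.1-fold lower at 26.2, 1219 and 1208. Other imprinted genes went the other way, among them Ndn at 12991, 5437 and 6481, with another probe set at 0.94, and of 20 in all 5 were higher and 6 lower.

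Classes of the basic machinery were close to equal. Besides the respiratory chain, 47 of 49 ribosomal protein genes were within 2-fold, with a median of -0.18, and the 2 lower genes were Rpl39l, at 849, 1929 and 1910, and Rpl12, at 533, 1105 and 1394. Of 48 proteasome genes 44 were within 2-fold. The 3 higher were Psmb8, Psmb9 and Psme1, which belong to the interferon-inducible form, and the lower was the germ-cell subunit Psma8. Proton pump genes of the lysosome were within 2-fold for 16 of 18.

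**Figure D5:**
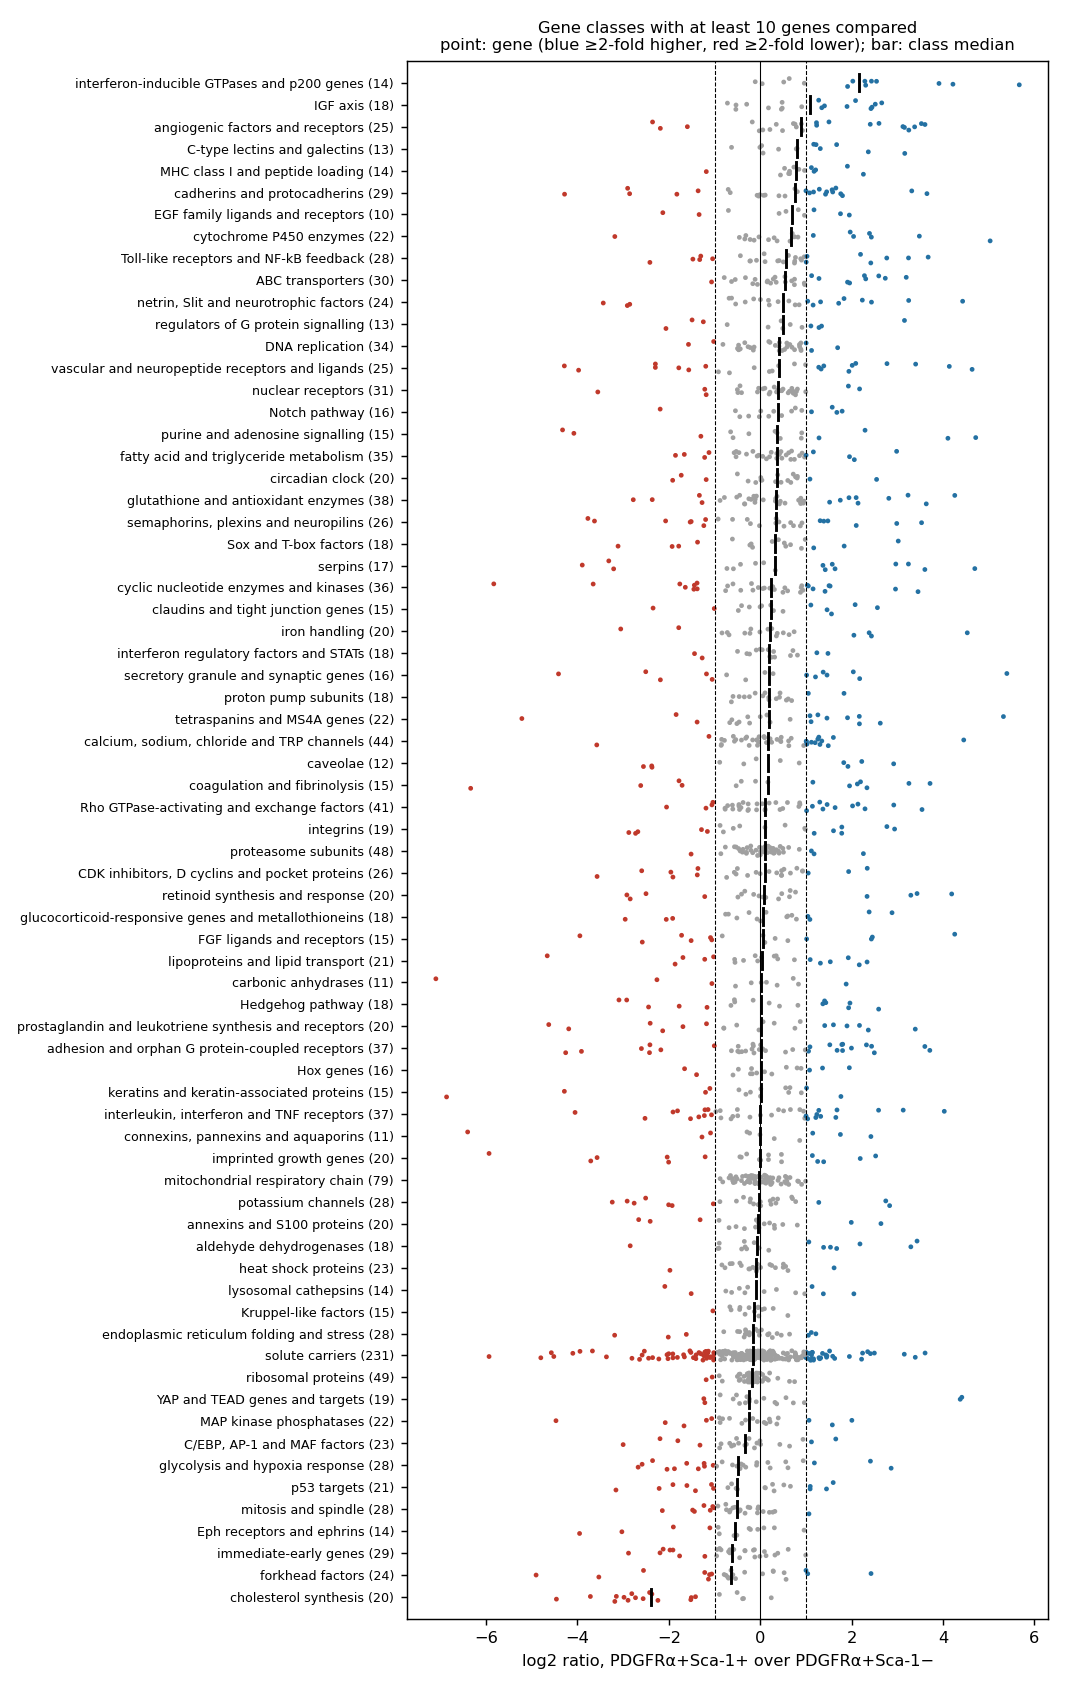
Log2 ratio of Sca-1+ over Sca-1- signals for genes of each class with at least 10 genes compared (number in brackets), 1 point per gene, blue where at least 2-fold higher, red where at least 2-fold lower, black bar at the class median, classes in order of median. Interferon-inducible GTPases and p200 genes head the order at 2.16, cholesterol synthesis ends it at -2.40, and the 79 respiratory chain genes all lie between the dashed 2-fold lines.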

How the data were processed

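RNA was amplified, biotin-labelled and hybridised, per the labels' protocols, to 1 Affymetrix array per fraction. The values the authors deposited are linear intensities per probe set, computed with MAS5 per the submitters' processing notes, whose version and detection calls no source used here gives. In the deposited values the 2% trimmed mean was 499 on each array, and signals ran from 0.1 to 42073.9. Here, 64 control probe sets were set aside and the 2% trimmed means of the arrays were set equal. Signals under the floor of 93.2, the mean of the 3 array medians, were raised to it before log2 ratios were taken. The platform annotation gave 1 symbol for 34945 probe sets, several for 932 and none for 9160; 34741 matched RefSeq (GRCm38.p6) by gene number. Each of 18193 genes was read from its brightest probe set by mean log2. Members without such a probe set, among them Runx2, Bglap and Spp1, are not analysed here.

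Genes under the floor on both PDGFRα+ arrays were not compared. With 1 array per fraction there is no p-value, and the number of arrays limits the precision. The genes, classes and lists were chosen with earlier results of these data known, and kinases matched by the name pattern for ribosomal proteins were removed after values were seen. Genes named in the text were ranks 7 to 20 of measured ratios and ranks 7 to 14 of bounds per direction, the 10 genes per direction with best agreeing probe sets, up to 4 members per class and direction with up to 2 within 2-fold, the gate and defining marker genes, and 6 bright genes within 1.1-fold. Names outside this rule are said to be so. The counting was tested on simulated data. Alternatives changed the floor, probe set choice, scaling, threshold and pseudocount. Python 3.11.15, numpy 2.4.6 and pandas 2.3.3 were used.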

Additional observations from a re-analysis of the deposited data

How the results depend on the processing

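No paired analysis was possible because each group has 1 array, and no array could be left out. Over the other settings the number of genes past 2-fold ran from 2248 to 3874, against 3103 as reported, and 51.7% to 59.0% of them were higher on the Sca-1+ array, against 56.8%. At a 4-fold threshold 1004 genes passed, 547 higher and 457 lower. With the floor at the 67th percentile of signals, and with only genes over the floor on both arrays, 5 classes in place of 3 had a median beyond 2-fold. The interferon-inducible GTPase and p200 median was 1.53 with that higher floor, and 5 of its genes were higher when both arrays had to be over the floor, since genes with only a bound are then left out. With the floor at the 33rd percentile 1 respiratory chain gene passed 2-fold. The cholesterol synthesis median was -1.55 with the mean over a gene's probe sets, which gives dimmer probe sets equal weight. Near the floor a ratio is a bound, and signals over 20000 may be compressed, so neither gives an exact size.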

Other observations

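Several runs of 5 neighbouring genes had every member at least 2-fold the same way between the PDGFRα+ arrays, with neighbours taken from the RefSeq gene order among genes compared. There were 7 such runs, they were looked for after the values were seen, and no test of their number was made. On chromosome 7 the tripartite-motif genes Trim34a, Trim12a, Trim12c, Trim30a and Trim30d, relatives of antiviral restriction factors, were all higher on the Sca-1+ array. Trim30a gave signals of 655, 194 and 247 on the Sca-1+, Sca-1- and double-negative arrays, 3.38-fold higher, and Trim12c gave 405, 110 and 103. Trim12a and Trim30d were over the floor on the Sca-1+ array alone of the 3. These genes are close copies, so probe sets may be shared and their values are uncertain.

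On chromosome 1, Ackr1 and Cadm3 adjoined the p200 genes Ifi207, Ifi204 and Mndal in a run that was higher throughout. Cadm3, a cell adhesion molecule of the immunoglobulin family, gave 2032, 104 and 28.6, 19.6-fold higher. On chromosome 9 the run of Tmod3, Tmod2, Lysmd2, Scg3 and Bmp5 was higher as well. Lysmd2 gave 1576, 255 and 273, 6.17-fold higher, whereas other probe sets of Tmod3 and Bmp5 reached down to -0.97 and -0.12.

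Probe sets without a gene name also differed between the PDGFRα+ arrays. Of 3374 such probe sets with a signal over the floor, 357 were at least 2-fold higher and 472 lower, which is 24.6% together, beside 25.8% of 21074 probe sets with 1 symbol. Unnamed probe sets were thus more often lower than higher, and those with 1 symbol, at 2843 higher and 2601 lower, the reverse.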
